A study of Homo sapiens with 6 samples.

Results

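The 43 genes described here are human genes of very long genomic span, among them CTNNA2, MAGI2, CNTNAP2, AUTS2, FHIT and WWOX. They were chosen by name for a span of about 0.4 Mb or more out of 53712 gene names, with results of this same comparison already known. A level of 1 CPM (a count scaled to library size) in at least one group divided them into 36 genes that are described in full and 7 that are set apart: LRP1B, PARK2, CSMD1, RBMS3, NAALADL2, ERBB4 and DPYD. In the GENCODE release 29 annotation the 43 spans ran between 523 and 2474 kb with a median of 1074 kb, against a median of 31.1 kb over all genes tested. All 43 are above 0.4 Mb in this annotation, which follows from their choice by span and is no separate support for it.

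RNA came from the established embryonic stem cell line H9, of human origin, kept in the culture medium RSeT, which is meant for naive-type pluripotent cells. Whether these cells were in such a state was not tested. In the group UNC1999, cells received 2.5 µM UNC1999, which blocks EZH2 and EZH1, a pair of histone methyltransferases. In the group UNC2400, cells received 2.5 µM UNC2400, an analog with added N-methyl groups and low activity, which served as the control compound. Both groups also carried 10 nM DZNep, which inhibits S-adenosylhomocysteine hydrolase, and 5 nM TSA, which inhibits histone deacetylases, so every value below was obtained in their presence. Compounds were added 24 h after passage and left for 48 h. Each group has 3 poly(A)-selected libraries, no group lacks both UNC compounds, and the labels do not say that replicates were separate cultures. A p-value here therefore reflects library-to-library spread, part of which may be technical.

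A gene of this size is nearly all intron, and RNA polymerase II needs many hours to travel its whole length, so its output depends on elongation, on splicing over long distances and on the absence of premature ends. Very long genes are known for coding adhesion molecules, synaptic proteins and scaffolds used in the nervous system, and several of them, FHIT, WWOX, PARK2, MACROD2 and IMMP2L included, lie at common fragile sites, where chromosomes break under replication stress. EZH2 and EZH1 are the catalytic subunits of Polycomb repressive complex 2, which places a repressive methyl mark on histone H3 at silent developmental genes.

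Total counts per library ran between 33522942 and 34481593 for UNC1999 and between 29699441 and 42345448 for UNC2400, so that a count of 0 allows up to 0.0708 to 0.101 CPM. UNC1999 replicate 1 stood apart from the other UNC1999 libraries. Its score on the first principal component, which held 67.8% of the variance, was 20.1, against 39.3 and 41.4 for UNC1999 replicates 2 and 3 and -35.2 to -31.6 for the UNC2400 libraries. All 6 pluripotency markers examined (POU5F1, NANOG, SOX2, LIN28A, SALL4 and DNMT3B) were above 1 CPM. Their summed level was 4664 to 5439 CPM in UNC1999 and 6853 to 6991 CPM in UNC2400. DNMT3B had the largest fold change of that list (-1.06 on the log2 scale). It averaged 1202 CPM in UNC1999 and 2498 CPM in UNC2400, the largest part of the difference in the sum. By the test described below, DNMT3B, POU5F1 (-0.44) and NANOG (-0.14) were lower, and SOX2, LIN28A and SALL4 did not pass. Over all genes tested, 25.9% were lower and 26.8% higher.

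Levels of the very long genes were lower with UNC1999 in most cases. Of the 43 genes, 39 had enough counts to be tested with edgeR's quasi-likelihood F test, and 32 of these were lower in UNC1999 and 0 higher at a Benjamini-Hochberg adjusted p under 0.05, while 7 did not pass. Over all 17596 genes tested, 25.9% were lower and 26.8% higher. With scaling factors (TMM) taken from genes of short span alone, 34 very long genes were lower and 0 higher, and 35.4% of all genes were lower and 16.9% higher. The median log2 fold change of the 39, UNC1999 minus UNC2400 here and throughout, was -0.77, beside 0.02 over all genes tested. Among the 36 genes at 1 CPM or more, 31 were lower and 5 did not pass (MACROD2, DLG2, SOX5, CAMTA1 and AUTS2). All UNC1999 libraries lay below all UNC2400 libraries for 33 of the 36, as they did for 29.7% of all genes tested. The genes were chosen with this comparison known, so these calls and their adjusted p-values describe the genes and are no independent test of them. In bulk RNA of this kind, fewer cells of a type and less RNA per cell cannot be told apart. The plot of single libraries shows each of the 36 genes.

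**Figure D1:**
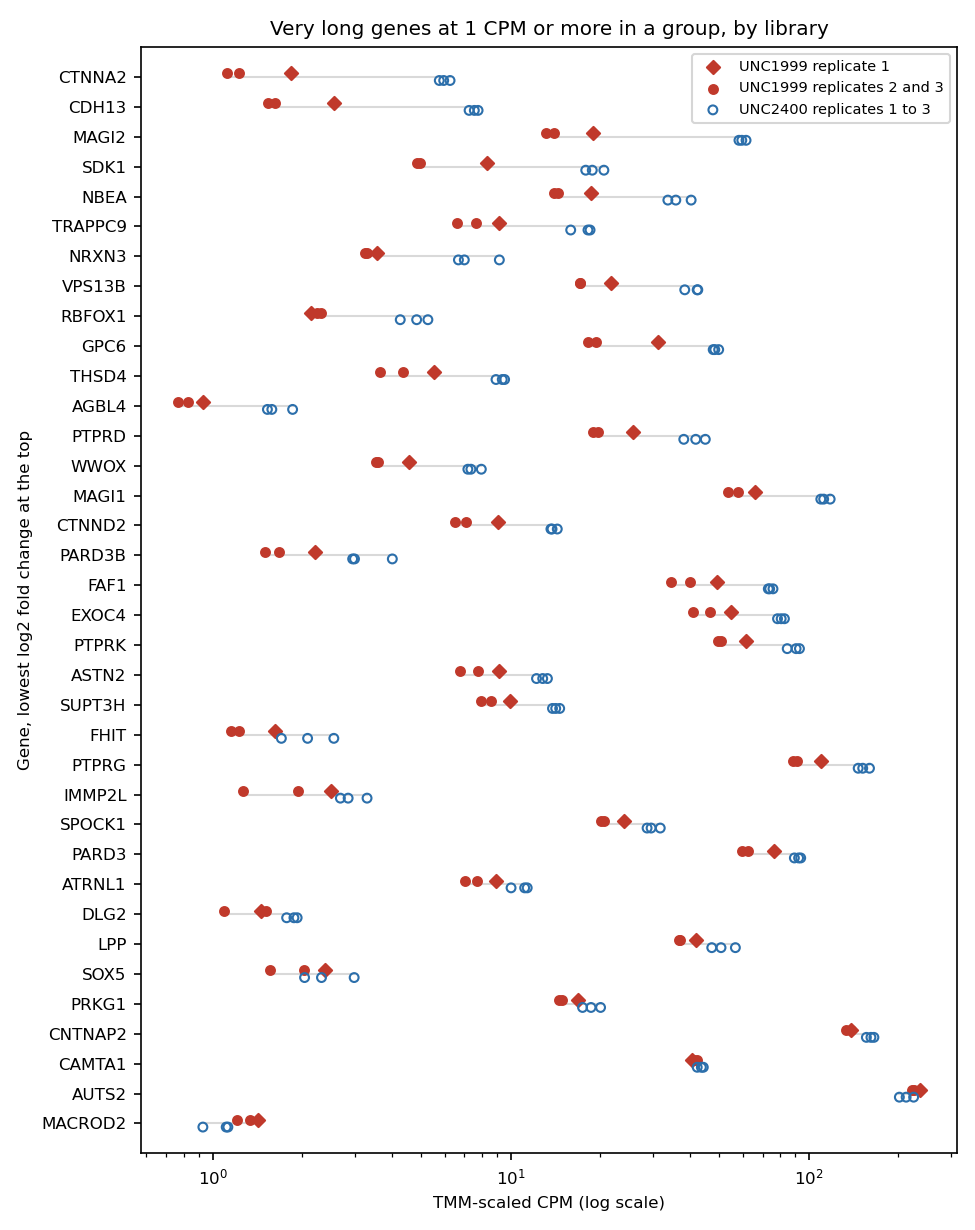
TMM-scaled CPM (horizontal, log scale) of the 36 very long genes at 1 CPM or more in a group, 1 row per gene, ordered by log2 fold change. Each red point is a UNC1999 library (diamond, replicate 1) and each blue circle a UNC2400 library. The UNC1999 points lie left of the UNC2400 points for 33 genes, and replicate 1 is the highest UNC1999 library for 33 genes.

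The start regions of the genes were read for letters that they share. RefSeq promoters of GRCh38.p14, 250 bases before to 50 bases after a start site, were found for 35 of the 43 genes, of which 16 have several annotated starts. Those of MAGI2, AGBL4, CNTNAP2 and AUTS2 are shown because, among the genes with a single start at the outer end of the gene, MAGI2 and AGBL4 had the lowest and CNTNAP2 and AUTS2 the highest fold changes. Each is printed 5′ to 3′ on the strand of the gene, with every CG dinucleotide in capitals. The MAGI2 promoter lies at chr7:79453618-79453917 on the minus strand, that of AGBL4 at chr1:50023905-50024204 on the minus strand, that of CNTNAP2 at chr7:146116551-146116850 on the plus strand and that of AUTS2 at chr7:69598225-69598524 on the plus strand.
MAGI2: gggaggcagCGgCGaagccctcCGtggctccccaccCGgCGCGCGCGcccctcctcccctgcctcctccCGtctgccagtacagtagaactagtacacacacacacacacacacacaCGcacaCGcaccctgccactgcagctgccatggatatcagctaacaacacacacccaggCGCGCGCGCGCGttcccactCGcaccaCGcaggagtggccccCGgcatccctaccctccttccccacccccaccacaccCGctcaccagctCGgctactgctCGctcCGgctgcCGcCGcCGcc
AGBL4: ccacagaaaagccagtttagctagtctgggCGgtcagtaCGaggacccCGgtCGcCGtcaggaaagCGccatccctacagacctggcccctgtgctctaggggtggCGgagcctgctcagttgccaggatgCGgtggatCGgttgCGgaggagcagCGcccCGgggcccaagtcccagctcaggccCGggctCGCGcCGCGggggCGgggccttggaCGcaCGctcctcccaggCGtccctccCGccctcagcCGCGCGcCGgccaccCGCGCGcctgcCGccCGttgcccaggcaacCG
CNTNAP2: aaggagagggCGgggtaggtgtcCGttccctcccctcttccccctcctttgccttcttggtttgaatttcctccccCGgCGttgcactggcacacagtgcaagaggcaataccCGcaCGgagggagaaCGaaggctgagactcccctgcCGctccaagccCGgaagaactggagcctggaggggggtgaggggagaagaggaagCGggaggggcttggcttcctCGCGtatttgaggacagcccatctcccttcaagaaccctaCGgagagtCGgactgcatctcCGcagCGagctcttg
AUTS2: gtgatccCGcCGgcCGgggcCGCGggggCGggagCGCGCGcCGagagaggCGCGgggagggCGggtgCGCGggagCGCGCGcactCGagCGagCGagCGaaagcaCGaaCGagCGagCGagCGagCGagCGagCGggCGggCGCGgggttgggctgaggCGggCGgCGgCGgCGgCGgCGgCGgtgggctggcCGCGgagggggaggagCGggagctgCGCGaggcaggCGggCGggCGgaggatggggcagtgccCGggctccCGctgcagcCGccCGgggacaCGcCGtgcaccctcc

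The MAGI2 promoter held 27 CG dinucleotides, that of AGBL4 32, that of CNTNAP2 16 and that of AUTS2 55, the most of the 35. CG dinucleotides numbered 0 to 55 over the 35 promoters with a median of 28, beside a median of 25 over the promoters of genes tested and 14 over all promoters in the table. On either strand, the letters GGGCGG, the core of a GC box, occurred in 22 of the 35 (62.9%), beside 68.5% of the promoters of genes tested and 44.5% of all. The AGBL4, CNTNAP2 and AUTS2 promoters hold them and that of MAGI2 does not. TATAAA occurred in 2 of the 35 (5.71%), those of GPC6 and NAALADL2, beside 6.04% of the promoters of genes tested and 12.02% of all. The start used for GPC6 lies 10278 bases from the outer end of the gene, and that for NAALADL2, the promoter with 0 CG dinucleotides, 418352 bases. Those of PRKG1 (83599 bases), RBFOX1 (779303 bases) and SDK1 (828433 bases) also lie away from it. These promoters may therefore not be those of the full-length transcripts. CCAAT occurred in 8 of the 35 (22.9%), beside 36.1% and 35.7%. CG-rich and CG-poor starts both occurred among the genes that were lower: PTPRK had 44 CG dinucleotides and CTNNA2 had 3. CTNNA2, however, has 4 annotated starts, and only the outermost was read, while PTPRK has 1. Which starts these cells use was not tested. These matches are letters in a fixed window and no evidence of binding.

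Genes for proteins of cell adhesion and of the synaptic surface came to 9, of which 7 were tested. All 7 were lower, with a median log2 fold change of -1.17, and the untested LRP1B and CSMD1 are given by their counts below. This count and those of the role groups that follow are to be read beside 2 shares. Over all genes tested 25.9% were lower, and among other genes of 0.4 Mb or more 64.1% were. The groups are small, and differences between roles were not tested. CTNNA2, the neural alpha-catenin that links cadherins to actin, had the lowest fold change of the 39 tested genes. It had 1.83, 1.22 and 1.12 CPM in UNC1999 replicates 1 to 3, against 5.76, 5.96 and 6.26 CPM in UNC2400 replicates 1 to 3. The groups were far apart, and the log2 fold change was -2.11 ± 0.17 (SE). CDH13, a cadherin held to the membrane by a lipid anchor in place of a cytoplasmic tail, had 2.55, 1.62 and 1.53 CPM in UNC1999, against 7.78, 7.26 and 7.56 CPM in UNC2400, a log2 fold change of -1.98 ± 0.16 (SE). SDK1, an immunoglobulin-superfamily molecule that binds its own kind at synapses, had 8.33, 4.97 and 4.86 CPM in UNC1999, against 20.6, 17.9 and 18.8 CPM in UNC2400, a log2 fold change of -1.65 ± 0.15 (SE). For all 3 genes UNC1999 replicate 1 was the highest UNC1999 library and still lay below every UNC2400 library.

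NRXN3, a neurexin of the presynaptic membrane, had 3.57, 3.30 and 3.24 CPM in UNC1999, against 9.17, 6.68 and 6.99 CPM in UNC2400. Its UNC1999 libraries were close to each other and UNC2400 replicate 1 was the high library of its group. The log2 fold change was -1.17 ± 0.14 (SE). CTNND2, a delta-catenin that binds cadherin tails, averaged 7.55 ± 1.34 CPM in UNC1999 and 13.9 ± 0.367 CPM in UNC2400 (SD, n = 3 each), for a log2 fold change of -0.88. ASTN2, an astrotactin known from the migration of neurons along glia, averaged 7.90 ± 1.21 CPM in UNC1999 and 12.8 ± 0.539 CPM in UNC2400 (SD, n = 3 each), for a log2 fold change of -0.69.

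CNTNAP2, which gathers potassium channels along axons, was the most abundant gene of the adhesion group and the one with the smallest fold change. It had 139, 133 and 139 CPM in UNC1999, against 166, 156 and 162 CPM in UNC2400. The groups did not overlap, and the log2 fold change was -0.23 ± 0.05 (SE; adjusted p = 0.000747 by edgeR). With offsets for exon length and GC content this direction flipped, to 0.09. The 7 tested adhesion genes thus spanned log2 fold changes between -2.11 and -0.23.

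Transcripts of matrix proteins and proteoglycans were also lower, all 4 of 4, with a median of -0.76. GPC6, a glypican that carries heparan sulfate at the cell surface, had 31.3, 18.2 and 19.3 CPM in UNC1999, against 49.9, 47.8 and 48.4 CPM in UNC2400, a log2 fold change of -1.09 ± 0.13 (SE). The spread within UNC1999 came from replicate 1, which lay well above the other UNC1999 libraries. THSD4, a protein that associates with fibrillin microfibrils, averaged 4.50 ± 0.946 CPM in UNC1999 and 9.28 ± 0.316 CPM in UNC2400 (SD, n = 3 each), for a log2 fold change of -1.04. SPOCK1, the secreted proteoglycan testican, had a log2 fold change of -0.48, and ATRNL1, a relative of attractin, one of -0.46.

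Among scaffold and polarity proteins 5 of 6 tested genes were lower, with a median of -0.68. MAGI2 is a scaffold with several PDZ domains at junctions and synapses. It had 18.9, 13.1 and 13.9 CPM in UNC1999, against 59.6, 58.4 and 61.6 CPM in UNC2400. That is a log2 fold change of -1.97 ± 0.09 (SE), and the UNC1999 mean was 25.6% of the UNC2400 mean. Its close relative MAGI1, also a junctional scaffold, had 66.2, 53.6 and 57.8 CPM in UNC1999, against 112, 110 and 118 CPM in UNC2400, a log2 fold change of -0.94 ± 0.07 (SE). MAGI2 thus had the lower fold change of these close relatives, a difference between genes that was not tested.

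PARD3, which organises cell polarity at tight junctions, had 76.2, 59.7 and 62.5 CPM in UNC1999, against 94.0, 92.5 and 89.5 CPM in UNC2400, a log2 fold change of -0.48 ± 0.07 (SE). Its relative PARD3B averaged 1.80 ± 0.366 CPM in UNC1999 and 3.32 ± 0.599 CPM in UNC2400 (SD, n = 3 each), for a log2 fold change of -0.88. LPP, a LIM-domain protein of focal adhesions, had a log2 fold change of -0.42 that became 0.03 with offsets for exon length and GC content. DLG2, a postsynaptic scaffold, had 1.45, 1.51 and 1.09 CPM in UNC1999, against 1.87, 1.77 and 1.92 CPM in UNC2400. The groups did not overlap, but its log2 fold change of -0.45 (95% interval -0.88 to -0.03) did not pass (adjusted p = 0.0683 by edgeR). It was lower (-0.58, adjusted p = 0.0232) with scaling factors from short-span genes.

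**Figure D2:**
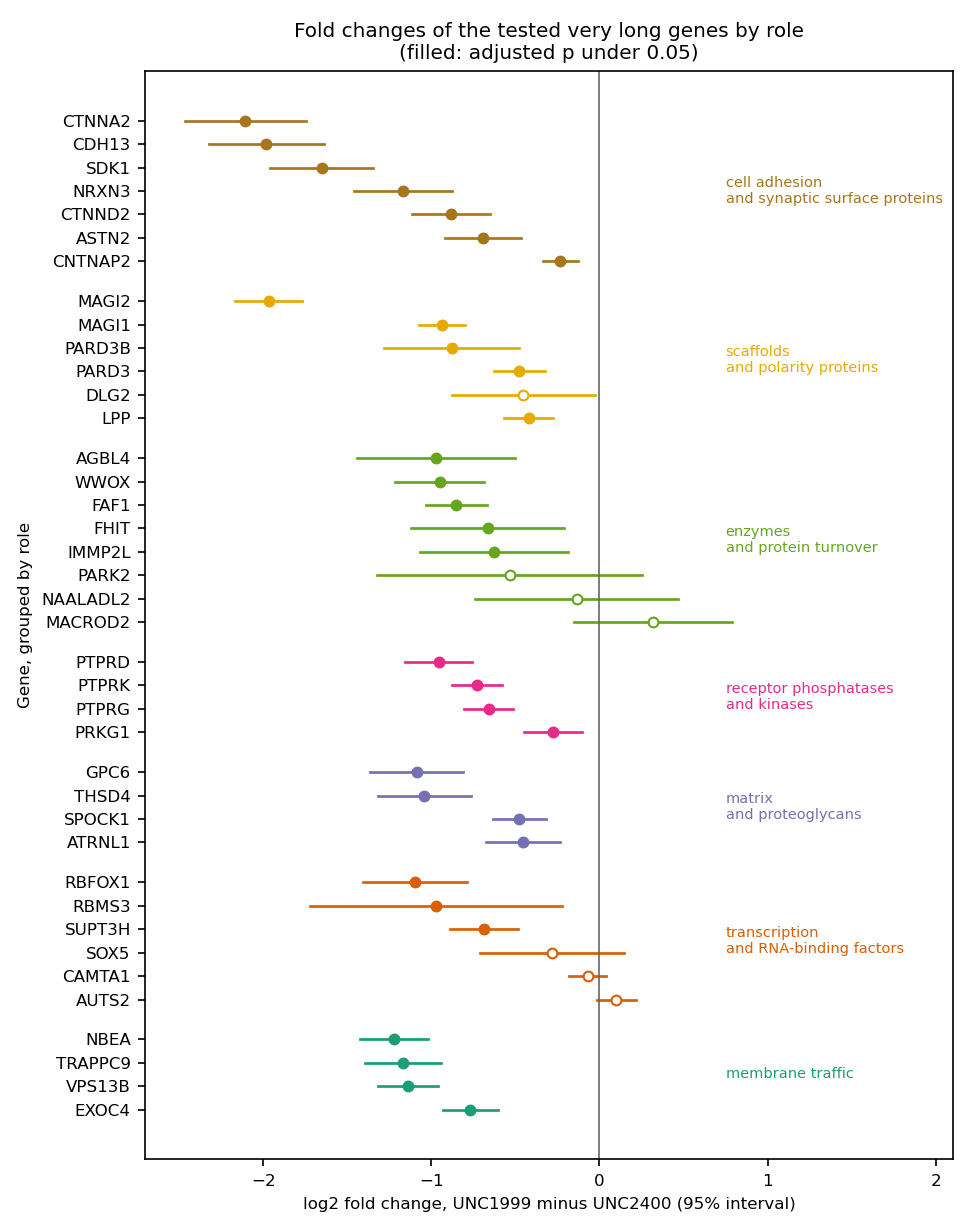
Log2 fold change, UNC1999 minus UNC2400 (horizontal, points with 95% intervals), of the 39 tested very long genes, grouped by the role of their proteins. Filled points passed at an adjusted p under 0.05 and open points did not. Filled points all lie left of 0, and the widest range, -2.11 to -0.23, is among adhesion genes.

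Genes for receptor phosphatases and kinases were lower in 4 of 4 tested cases, with a median of -0.69. PTPRD, PTPRG and PTPRK code for tyrosine phosphatases that span the membrane. PTPRD had 25.7, 18.9 and 19.6 CPM in UNC1999, against 45.0, 38.1 and 41.8 CPM in UNC2400, a log2 fold change of -0.96 ± 0.09 (SE). PTPRG had 110, 88.6 and 91.4 CPM in UNC1999, against 160, 147 and 152 CPM in UNC2400, a log2 fold change of -0.66 ± 0.07 (SE). PTPRK had 61.5, 49.7 and 50.6 CPM in UNC1999, against 93.1, 84.7 and 90.7 CPM in UNC2400, a log2 fold change of -0.73 ± 0.07 (SE). In all 3, the UNC1999 libraries lay below the UNC2400 libraries with a clear gap. PRKG1, a cGMP-dependent protein kinase, differed least of this group, with 16.9, 14.8 and 14.5 CPM in UNC1999, against 20.03, 18.6 and 17.4 CPM in UNC2400. Its log2 fold change was -0.28 ± 0.08 (SE; adjusted p = 0.00929 by edgeR), and it did not pass without UNC2400 replicate 1 (adjusted p = 0.0574) or with offsets for exon length and GC content (adjusted p = 0.768).

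All 4 genes of membrane traffic were lower, with a median of -1.15, beside 64.1% lower among other genes of 0.4 Mb or more. NBEA codes for neurobeachin, a large BEACH-domain protein of vesicle transport. It had 18.7, 14.4 and 14.0 CPM in UNC1999, against 35.8, 33.7 and 40.3 CPM in UNC2400, a log2 fold change of -1.22 ± 0.10 (SE). TRAPPC9, a subunit of the TRAPP tethering complex, had 9.11, 6.62 and 7.63 CPM in UNC1999, against 18.5, 18.2 and 15.9 CPM in UNC2400, a log2 fold change of -1.17 ± 0.11 (SE). VPS13B, a lipid transfer protein of the Golgi, had 21.7, 17.1 and 17.0 CPM in UNC1999, against 42.5, 38.4 and 42.3 CPM in UNC2400, a log2 fold change of -1.14 ± 0.08 (SE). For these 3 genes the UNC1999 means were between 42.8% and 45.4% of the UNC2400 means. EXOC4, a subunit of the exocyst that tethers secretory vesicles, had 55.0, 40.8 and 46.5 CPM in UNC1999, against 78.6, 82.9 and 80.9 CPM in UNC2400, a log2 fold change of -0.77 ± 0.08 (SE).

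Transcription and RNA-binding factors were divided: 3 of 6 tested genes were lower and 3 did not pass, with a median of -0.48. RBFOX1, a splicing regulator and with 2474 kb the longest of the 43 genes, had 2.15, 2.30 and 2.24 CPM in UNC1999, against 5.28, 4.26 and 4.84 CPM in UNC2400, a log2 fold change of -1.09 ± 0.15 (SE). It was one of 3 among the 36 genes in which UNC1999 replicate 1 was not the highest UNC1999 library, with DLG2 and CAMTA1. SUPT3H, a subunit of the SAGA coactivator complex, averaged 8.83 ± 1.02 CPM in UNC1999 and 14.2 ± 0.396 CPM in UNC2400 (SD, n = 3 each), for a log2 fold change of -0.69. RBMS3, an RNA-binding protein under 1 CPM in both groups, completes the 3 that were lower.

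AUTS2, a nuclear protein of neural development that is also found in a variant Polycomb complex, was the most abundant of the 43 genes in CPM. It had 236, 226 and 222 CPM in UNC1999, against 225, 201 and 212 CPM in UNC2400. The groups overlapped, and the log2 fold change was 0.10 ± 0.05 (SE), with a 95% interval of -0.01 to 0.21 (adjusted p = 0.129 by edgeR). Its direction flipped to -0.02 when scaling factors came from short-span genes, and with offsets for exon length and GC content the value was 0.53 (adjusted p = 1.24e-07). CAMTA1, a calmodulin-binding transcription activator, had 40.5, 41.2 and 42.2 CPM in UNC1999, against 44.3, 42.3 and 43.6 CPM in UNC2400, a log2 fold change of -0.07 (95% interval -0.18 to 0.04). SOX5, a SOX-family factor, had 2.38, 1.56 and 2.03 CPM in UNC1999, against 2.99, 2.04 and 2.32 CPM in UNC2400, a log2 fold change of -0.28 (95% interval -0.71 to 0.14). Without single libraries SOX5 ran between -0.45 (without UNC1999 replicate 1) and -0.13 (without UNC2400 replicate 1), and AUTS2 between 0.05 (without UNC1999 replicate 1) and 0.14 (without UNC2400 replicate 1), and neither passed. The intervals of AUTS2, CAMTA1 and SOX5 all reached above 0, and all lay above -0.77, the median of the tested very long genes. CAMTA1 was lower (-0.19, adjusted p = 0.0067) with scaling factors from short-span genes.

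Genes for enzymes and for protein turnover were lower in 5 of 8 tested cases, with a median of -0.65. WWOX, an oxidoreductase with WW domains, had 4.56, 3.58 and 3.54 CPM in UNC1999, against 7.19, 7.97 and 7.36 CPM in UNC2400, a log2 fold change of -0.95 ± 0.13 (SE). FAF1, a cofactor of the p97 ATPase in the removal of ubiquitinated proteins, had 49.1, 34.6 and 40.0 CPM in UNC1999, against 74.0, 75.9 and 73.2 CPM in UNC2400, a log2 fold change of -0.85 ± 0.09 (SE). Both were clearly separated between the groups. FHIT, a hydrolase of dinucleoside polyphosphates, had 1.62, 1.22 and 1.15 CPM in UNC1999, against 1.70, 2.08 and 2.55 CPM in UNC2400. The nearest libraries of the 2 groups almost touched, at 1.62 and 1.70 CPM, and the log2 fold change was -0.66 ± 0.22 (SE; adjusted p = 0.0156 by edgeR). It no longer passed without UNC1999 replicate 3 (adjusted p = 0.0573) or without UNC2400 replicate 3 (adjusted p = 0.0912).

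IMMP2L, a subunit of a peptidase of the inner mitochondrial membrane, had 2.50, 1.93 and 1.27 CPM in UNC1999, against 3.30, 2.85 and 2.68 CPM in UNC2400, a log2 fold change of -0.63 ± 0.21 (SE). It did not pass without UNC1999 replicate 3 (adjusted p = 0.0826) or without UNC2400 replicate 1 (adjusted p = 0.0747). AGBL4, a carboxypeptidase that removes glutamate side chains from tubulin, had 0.929, 0.767 and 0.825 CPM in UNC1999, against 1.53, 1.58 and 1.86 CPM in UNC2400, a log2 fold change of -0.97 ± 0.22 (SE). MACROD2, a hydrolase that removes ADP-ribose from proteins, differed in the other direction, with 1.42, 1.34 and 1.21 CPM in UNC1999, against 1.11, 1.13 and 0.928 CPM in UNC2400. It was the only one of the 36 genes with every UNC1999 library above every UNC2400 library, but the log2 fold change of 0.32 (95% interval -0.15 to 0.79) did not pass (adjusted p = 0.242 by edgeR).

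The limit of 1 CPM fell among genes of similar level. Just inside it were MACROD2, with means of 1.32 CPM in UNC1999 and 1.05 CPM in UNC2400, and AGBL4, with 0.840 CPM in UNC1999 and 1.65 CPM in UNC2400. Just outside were NAALADL2, with 0.713 CPM in UNC1999 and 0.784 CPM in UNC2400, and RBMS3, with 0.337 CPM in UNC1999 and 0.667 CPM in UNC2400. A gene that reaches the limit only through its higher group had to differ between the groups, which applies to AGBL4.

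The 7 genes set apart rested on few counts, and 3 of them, RBMS3, NAALADL2 and PARK2, passed the low-count filter. RBMS3 had 35 counts in all UNC1999 libraries together, against 67 in all UNC2400 libraries. It was lower (log2 fold change -0.97 ± 0.35 SE; adjusted p = 0.0291 by edgeR), but not without UNC1999 replicate 1 (adjusted p = 0.11) or by DESeq2 (adjusted p = 0.0707). NAALADL2, a relative of glutamate carboxypeptidase, had 74 counts in UNC1999, against 79 in UNC2400, and PARK2, the ubiquitin ligase parkin, 32 in UNC1999, against 45 in UNC2400. Neither passed.

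The other 4 had too few counts to be tested. CSMD1, a large membrane protein with complement-control domains, had 11 counts in UNC1999, against 26 in UNC2400, a depth-scaled ratio of 0.427 with an exact 95% counting interval of 0.19 to 0.894. LRP1B, an endocytic receptor of the LDL receptor family, had 15 counts in UNC1999, against 3 in UNC2400, a ratio of 5.05 (interval 1.43 to 27.2). All its UNC1999 counts came from replicates 1 and 2. ERBB4, a receptor tyrosine kinase for neuregulins, had 21 counts in UNC1999, against 30 in UNC2400 (ratio 0.707, interval 0.384 to 1.28), and DPYD, which breaks down pyrimidines, 20 in UNC1999, against 12 in UNC2400 (ratio 1.68, interval 0.783 to 3.77). These intervals cover counting error only, since the spread between libraries and repeated reads of a molecule add to it.

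Summed over the 43 genes, the level was 1122, 950 and 977 CPM in UNC1999 replicates 1 to 3, against 1542, 1449 and 1502 CPM in UNC2400 replicates 1 to 3. The mean was 1017 ± 92.5 CPM in UNC1999 and 1498 ± 46.6 CPM in UNC2400 (SD, n = 3 each), so that the UNC1999 mean was 67.9% of the UNC2400 mean. AUTS2 and CNTNAP2 alone made up 33.4% to 37.9% of that sum in UNC1999 libraries and 24.7% to 25.3% in UNC2400 libraries. The sum thus differed less than the typical member, since the 2 most abundant genes had small fold changes.

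UNC1999 replicate 1 was nearer to the UNC2400 libraries than the other UNC1999 libraries were. Over the 36 genes, the median log2 ratio of UNC1999 replicate 1 to the UNC2400 mean was -0.57, beside -0.99 and -0.93 for UNC1999 replicates 2 and 3. It was the highest UNC1999 library for 33 of the 36 genes, as it was for 35.8% of all genes tested and 71.8% of all genes lower in UNC1999. Without it, 31 genes were lower and the median over the tested genes was -0.89. The part of this library's position in the fold changes of the very long genes was not tested beyond that value.

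The very long genes differed widely in level and structure. Per kilobase of joined exons, the level in UNC1999 was highest for PARD3 (10.2 CPM per kb), AUTS2 (9.43 CPM per kb) and CNTNAP2 (8.22 CPM per kb). In UNC2400 it was highest for PARD3 (14.1 CPM per kb), PTPRG (10.4 CPM per kb) and PTPRK (9.95 CPM per kb). AUTS2 was at 8.80 CPM per kb there. Over all 43 genes, exons made up a median of 0.966% of the span, against 15.8% over all genes tested. Joined exon length was 3.19 to 31.5 kb with a median of 10.4 kb, against 4.87 kb over all genes tested, and the median GC content of the longest transcript was 44.3%, against 48.8%. The longest intron of a gene was 94.4 to 779 kb over the 43, with the lowest value in DPYD and the highest in WWOX.

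Within the 36 genes, span and fold change showed almost no correlation in rank. These genes were chosen for long span, 523 to 2474 kb, so a relation over all lengths cannot be judged from them. Spearman's rho was -0.003 and Pearson's r 0.001 between log2 span and log2 fold change (n = 36 genes, all measured in the same 6 libraries). For the longest intron the rho was 0.09, for joined exon length 0.02, for GC content -0.27 and for level per kilobase 0.11. CNTNAP2, with 2305 kb and a log2 fold change of -0.23, and PTPRD, with 2298 kb and one of -0.96, are nearly equal in span.

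Genes of 0.4 Mb or more outside the chosen 43 were lower in the same comparison. Of 395 such genes tested, out of 478 in the count table, 253 were lower (64.1%) and 16 higher (4.05%), with a median log2 fold change of -0.63, beside 25.9% lower and 26.8% higher over all genes tested. HMCN1, an extracellular matrix protein, had the lowest fold change among those whose groups did not overlap and whose mean log2 CPM reached 1, -2.04 ± 0.13 (SE), followed by SLC25A21, a mitochondrial carrier, with -1.98 ± 0.24. The neural cell adhesion molecule NCAM2 had 2.50, 1.76 and 1.86 CPM in UNC1999, against 6.74, 6.06 and 6.93 CPM in UNC2400 (log2 fold change -1.68 ± 0.15 SE). SYT1, the calcium sensor of synaptic vesicles, had 21.4, 14.2 and 15.4 CPM in UNC1999, against 55.5, 50.5 and 51.7 CPM in UNC2400 (log2 fold change -1.63 ± 0.10 SE). Long genes were not all lower, however. With offsets for exon length and GC content, 216 of these other long genes were lower and 40 higher.

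The transcription factor gene CREB5, of 527 kb, had 3.10, 6.91 and 5.16 CPM in UNC1999, against 0.972, 0.599 and 0.795 CPM in UNC2400, a log2 fold change of 2.71 ± 0.28 (SE). RUNX1, a transcription factor of blood development with a span of 1217 kb, had 2.52, 3.84 and 3.12 CPM in UNC1999, against 1.42, 0.982 and 0.928 CPM in UNC2400, a log2 fold change of 1.52 ± 0.22 (SE). The calcium channel gene TRPC6 had a log2 fold change of 0.69 ± 0.08 (SE). SOX2-OT, a non-coding RNA gene that overlaps SOX2, had one of 0.71 ± 0.11 (SE), which is uncertain because of that overlap. In all of these 4 the libraries of the 2 groups did not overlap. Their spans run between the outermost annotated ends of each gene. Which transcripts the cells used, and over what length, was not tested.

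**Figure D3:**
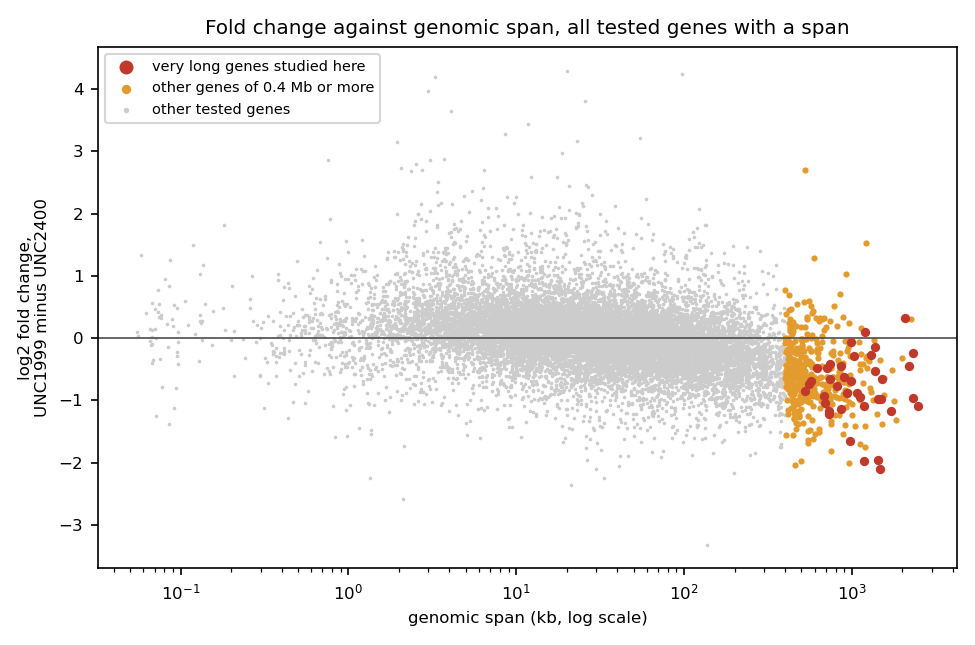
Log2 fold change, UNC1999 minus UNC2400 (vertical), against genomic span in kb (horizontal, log scale), 1 point per tested gene with an annotated span (n = 15524). Red points are the tested very long genes described here, orange points the 395 other genes of 0.4 Mb or more, and grey points the remaining genes. Most long genes lie below 0, with CREB5 and RUNX1 among the orange points above it.

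Over all 15524 tested genes with a span, Spearman's rho between log2 span and log2 fold change was -0.39 and Pearson's r -0.35, across genes that share the same 6 libraries and are not independent replicates. In bins of span whose edges were chosen after the values were seen, genes outside the 43 were lower in 9.10% of cases and higher in 42.3% below 10 kb. Between 100 and 200 kb 48.8% were lower and 12.7% higher. Between 400 and 800 kb 64.9% were lower and 3.76% higher, and from 800 kb on 60.5% were lower and 5.26% higher. The medians were 0.20 below 10 kb, -0.20 between 100 and 200 kb, -0.63 between 400 and 800 kb and -0.66 from 800 kb on. The share of lower genes therefore did not increase beyond 400 kb in these bins. TMM scaling held the median of all genes near 0, so fold changes are relative to the bulk of genes.

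**Figure D4:**
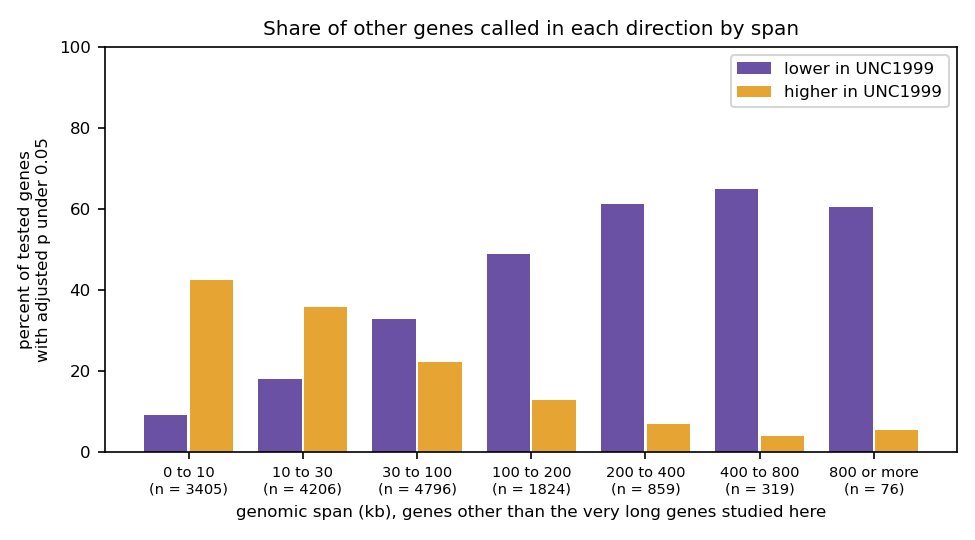
Percent of tested genes called lower (purple) and higher (orange) in UNC1999 at an adjusted p under 0.05 (vertical), by genomic span in kb (horizontal), for genes other than the 43. Lower calls make up 9.10% below 10 kb and 64.9% between 400 and 800 kb, and higher calls 42.3% and 3.76% in the same bins.

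Relatives of the very long genes, many of them much shorter, were examined through a list of 67 named paralogs. Of 64 tested, 41 were lower and 6 higher, beside 25.9% lower and 26.8% higher over all genes tested, with a median log2 fold change of -0.32. The endocytic receptor LRP1, of 84.9 kb, had 108, 84.1 and 84.1 CPM in UNC1999, against 280, 227 and 241 CPM in UNC2400, a log2 fold change of -1.44 ± 0.09 (SE), although its very long relative LRP1B was barely detected. CTNNA1, the alpha-catenin of epithelia, with 324 kb, had a log2 fold change of -0.60 ± 0.07 (SE), beside -1.01 ± 0.13 for CTNNA3 and -2.11 for CTNNA2. MAGI3 had -0.24 ± 0.10 (SE), beside -0.94 for MAGI1 and -1.97 for MAGI2. CTNNA2 and MAGI2 thus had the lowest values among their relatives, but the differences between relatives were not tested.

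E-cadherin (CDH1, 98.3 kb) had a log2 fold change of -0.65, and N-cadherin (CDH2, 226 kb) one of 0.06 that did not pass. Among relatives of NBEA, LRBA had -1.38 and NBEAL2, of 30.02 kb, -1.16. Among relatives of VPS13B, VPS13A had -1.11, VPS13D -0.96 and VPS13C -0.31. NRXN2, a neurexin of 117 kb, had -0.22 and did not pass. SDK2, of 310 kb, had -0.20 and did not pass, beside -1.65 for SDK1. Large fold changes therefore also occurred in relatives of short span such as NBEAL2 and LRP1. The 6 paralogs that were higher were RBMS2 (0.78), CNTNAP1 (0.35), FAF2 (0.27), SOX13 (0.21), ZYX (0.19) and GPC1 (0.15, log2 fold changes), with spans of 10.0 to 74.3 kb. Only 2 paralogs were higher (46 lower) with scaling factors from short-span genes, and 3 (36 lower) without UNC1999 replicate 3. With offsets for exon length and GC content 10 were higher and 31 lower.

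Of the other subunits of complexes that hold a very long gene, some were lower and some higher, to be read beside the 25.9% lower and 26.8% higher of all genes tested. Beside EXOC4, 4 of 8 exocyst subunits were lower and 1 was higher, with the smallest p for EXOC6B (-0.62 ± 0.07 SE), itself 650 kb long, and for EXOC8 (0.49 ± 0.07 SE), of 5.10 kb. Beside TRAPPC9, 3 of 12 tested TRAPP subunits were lower, near the share over all genes, and 2 higher, with the smallest p for TRAPPC12 (-0.59 ± 0.06 SE) and TRAPPC3 (0.72 ± 0.07 SE). TRAPPC3 had 40.6, 45.4 and 47.5 CPM in UNC1999, against 28.3, 25.6 and 27.3 CPM in UNC2400. Beside SUPT3H, 2 of 18 SAGA subunits were lower and 10 higher, with the smallest p for TRRAP (-0.79 ± 0.07 SE), the scaffold of the complex, and TADA3 (0.61 ± 0.05 SE). Beside PARD3 and PARD3B, 2 of 6 genes of the PAR polarity complex were lower and 2 higher, with the smallest p for PRKCZ (-0.58 ± 0.08 SE) and CDC42 (0.21 ± 0.05 SE).

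Genes that lie wholly inside one of the 43 were listed after the fold changes were seen. The count table holds 120 such names, and 8 of them were tested, of which 3 were higher, 1 was lower and 4 did not pass. Over all genes tested 26.8% were higher and 25.9% lower, and 8 genes are too few to be set apart from these shares. LRRN3, a neuronal leucine-rich repeat protein inside IMMP2L, averaged 2.28 CPM in UNC1999 and 0.612 CPM in UNC2400, a log2 fold change of 1.88 ± 0.22 (SE), beside -0.63 for IMMP2L. FLRT3, an adhesion molecule inside MACROD2, had 1.04 ± 0.16 (SE), beside 0.32 for MACROD2, which did not pass. TRIM32, a ubiquitin ligase inside ASTN2, had 0.97 ± 0.08 (SE), beside -0.69 for ASTN2. LRRTM1, a synaptic organiser inside CTNNA2, had -0.32 ± 0.12 (SE), beside -2.11 for CTNNA2. These 4 are read on the strand opposite to their host. CSTF2T inside PRKG1, BEND5 inside AGBL4 and the ribosomal protein pseudogenes RPL10AP6 and RPL10P3 did not pass, and values of pseudogenes are uncertain because reads of near-identical copies can be divided among them. Exons of 20 of the 43 genes overlap an exon of another annotated gene, for 16 of them on the opposite strand, and the strand setting of the counts is not given in the sources used here.

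**Figure D5:**
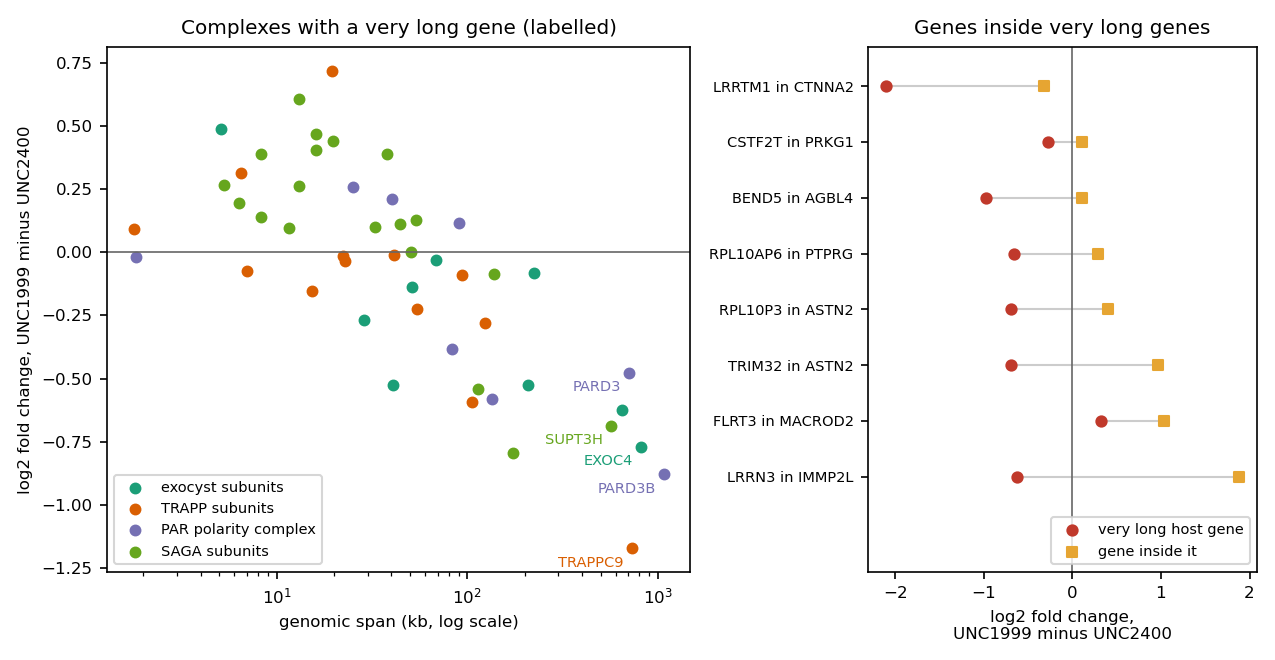
Left, log2 fold change (UNC1999 minus UNC2400) against genomic span in kb (log scale) for tested subunits of 4 complexes, with the very long subunits EXOC4, TRAPPC9, SUPT3H, PARD3 and PARD3B labelled. Right, log2 fold changes of 8 genes (orange squares) that lie inside very long genes (red circles), 1 row per pair. The labelled subunits all lie below 0, and LRRN3, FLRT3 and TRIM32 lie right of 0.

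Neuron markers were measured because many of the very long genes act in neurons. Of 12 markers 6 were lower and 2 higher, beside 25.9% lower and 26.8% higher over all genes tested. NEFL (1.39) and STMN2 (1.93) were higher (log2 fold changes). SNAP25 (-1.13), MAP2 (-1.07), GAP43 (-0.89), DCX (-0.65), ELAVL3 (-0.49) and SYN1 (-0.48) were lower. The summed level of the 12 was 574 to 604 CPM in UNC1999 and 534 to 553 CPM in UNC2400. At 1 CPM or more in a group were 11 of the 12, and none was at 0 in all libraries. The higher sum in UNC1999 rested on NEFL, without which the other 11 summed to 425 to 452 CPM in UNC1999 and 478 to 498 CPM in UNC2400. Of 10 fibroblast or feeder markers 6 were tested, of which 5 were lower and 1 higher, to be read beside the same shares over all genes. The summed level of the 10 was 209 to 221 CPM in UNC1999 and 312 to 342 CPM in UNC2400. DCN, LUM, FAP and COL3A1 were at or near 0, and PDGFRB, the 1 that was higher, was under 1 CPM in both groups. The other 5 of the 10 reached 1 CPM, and all 5 were lower. In UNC1999 and UNC2400, COL1A2 averaged 85.5 and 137 CPM, THY1 68.3 and 88.3 CPM and COL1A1 33.8 and 57.2 CPM. PDGFRA averaged 25.6 and 40.1 CPM and POSTN 3.39 and 6.79 CPM. The part of these shifts, and of the lower summed pluripotency markers, in the fold changes of the very long genes was not tested.

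In the authors' deposited table of this comparison all 43 genes are listed, 32 of them lower in UNC1999 and 0 higher at an adjusted p under 0.05. The fold changes in the authors' deposited table differed from those obtained here by at most 0.05 on the log2 scale over the genes tested here.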

How the data were processed

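Poly(A)-selected, strand-marking libraries of H9 cells, 3 per compound from 200 ng of RNA each, were grouped and numbered by the sample titles. The deposited counts are whole numbers per gene name and were not normalized. Trim Galore 0.4.0, TopHat2 2.0.13, featureCounts, Subread 1.5.0 and hg19 appear in a list of tools and builds, per the submitters' processing notes, without roles or order. The sources used here give no annotation, strand setting or treatment of multiply matching reads. A mark on the count table says that duplicates, of an unstated kind, were taken out. It holds 26 names in calendar-date form, which are not reported. The authors also deposited log2 values marked as normalized and batch-corrected, which were not tested. The authors' deposited comparison table gives p-values, test scores and log2 fold changes, per the file headers.

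Counts were tested in R 4.3.3 by the two-sided quasi-likelihood F test of edgeR 4.0.16, with TMM factors and the group as sole term, on the 17596 genes that edgeR's default low-count filter left. Benjamini-Hochberg adjustment ran over these genes, with a threshold of 0.05. The test was run on simulated data first. Levels are TMM-scaled CPM, as mean ± SD, and fold changes are given ± SE. Intervals of fold changes are 95% intervals, and those of summed counts are exact and cover counting error only, as does the limit of 3 counts that a count of 0 allows.

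GENCODE release 29 (GRCh38), matched by gene name for 88.2% of tested genes, gave span, exon length and GC content, which serve as properties only. Promoters are from RefSeq. The 43 genes, their role groups and the other lists were chosen with earlier results of these data known. Named in full were up to 8 lower and 4 higher very long genes of largest fold past the threshold at 1 CPM or more, genes nearest that limit, up to 4 other long genes per direction, and the subunit with the smallest p per direction in each complex; further genes were named after their values were seen, and some listed genes are not reported here.

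Alternatives were RLE and upper-quartile factors, TMM factors from genes under the median span, no low-count filter, at least 1 CPM in 3 libraries, DESeq2 1.42.0, limma-voom (limma 3.58.1), the replicate number as a block, each library left out, offsets for exon length and GC content, span limits of 0.2 and 0.8 Mb, and library-total CPM for the sum.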

Additional observations from a re-analysis of the deposited data

How the results depend on the processing

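Over 15 alternatives the number of very long genes lower in UNC1999 was 28 to 34 (32 as reported), with 26 genes lower in every setting. Leaving out single libraries gave 29 to 32, and medians of -0.89 to -0.68. Of 39 tested genes, 29 kept direction and side of the threshold throughout. With offsets for exon length and GC content 1 very long gene, AUTS2, was higher (0.53), and CNTNAP2 (0.087), NAALADL2 (0.124), LPP (0.030) and CAMTA1 (0.088) turned positive without passing. Under the same offsets 216 other genes of 0.4 Mb or more were lower and 40 higher, and 31 paralogs were lower and 10 higher. TMM factors from genes under the median span shifted the median of all genes to -0.11, turned AUTS2 to -0.023 and left 2 paralogs higher. Without single libraries NAALADL2 ran between -0.322 and 0.045, positive only without UNC1999 replicate 3. Without single libraries 3 to 6 paralogs were higher. RBMS3 did not pass by DESeq2, with the offsets or without any library except UNC1999 replicate 2, and the stricter filter removed RBMS3, NAALADL2 and PARK2. With a limit of 0.2 Mb, which takes in more genes, 779 other genes were lower and 75 higher, and with 0.8 Mb, which takes in fewer, 46 and 4. For the other changes the cause was not tested.

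Deviations of same-numbered libraries from their group means correlated at 0.02, 0.08 and 0.12, and the main fit did not take the numbers as pairs. Genes with any count, however, numbered 29527 in UNC1999 replicate 2 and 29385 in UNC2400 replicate 2. In replicates 1 and 3 they numbered 26865 and 26730 in UNC1999 and 26918 and 26413 in UNC2400. A batch that follows the replicate number can therefore not be excluded, and the labels do not name one. With the replicate block 32 very long genes were lower, all of them shared with the fit without it, and 9562 genes passed in all, against 9268. Depth limits CSMD1, LRP1B, ERBB4 and DPYD, which had too few counts to be tested.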
